A study of Rattus norvegicus with 12 samples.

Results

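The genes described here encode Rab GTPases, SNARE proteins, Arf GTPases, the COPI and COPII coats and the Tmed cargo receptors, the machinery that carries secretory and membrane proteins from the endoplasmic reticulum through the Golgi to the cell surface. They were chosen by gene symbol and not by their levels, although earlier results of these data were known. A probe set was taken where its only symbol began with Rab, Stx, Arf or Snap and a digit. The symbol could also begin with Vamp, Copa, Copb, Cope, Copg, Copz, Sec22, Sec23, Sec24, Sec31, Tmed, Gosr or Bet1. Rab3d was left out. This gave 104 genes of the 10411 with a probe set of a single symbol. They had 144 such probe sets of the 15866 tested, and 35 genes had more than 1, in which case the probe set with the highest mean over the 12 arrays stood for the gene. By role there were 43 Rab GTPases, 7 Rab effectors and regulators, 11 syntaxins, 6 Vamp and 4 Snap genes, 6 Golgi SNAREs, 6 Arf GTPases, 8 COPI and 5 COPII subunits and 8 Tmed cargo receptors.

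RNA of the whole pancreas of adult male Wistar rats was measured on 12 Affymetrix RAE230-A arrays, 3 for each group. RNA of 3 rats was pooled for every array, and the p-values therefore rest on the variation from pool to pool. Healthy untreated rats (HU) and diabetic untreated rats (DU) were kept for 5 to 6 weeks, and healthy treated (HT) and diabetic treated rats (DT) received sodium tungstate at 0.7 g/L for 1 week and at 2 g/L for the following 4 to 5 weeks as the sample labels give it, whereas the study's methods name only the higher concentration. Diabetes was induced with streptozotocin (STZ), a toxin of the insulin-producing beta cell, and sodium tungstate is an oral agent that lowers glycemia in diabetic rats. Levels are log2 values made by RMA, so that a difference of 1 is a 2-fold change, and fold changes, standard errors (SE) and Benjamini-Hochberg adjusted p-values over all 15866 probe sets are those of limma. A gene is said to have risen or fallen only where the adjusted p was under 0.05.

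Secretory proteins enter the endoplasmic reticulum, leave it in COPII-coated vesicles, pass the Golgi and are packed into granules. COPI vesicles carry receptors and escaped residents back. Rab GTPases mark each membrane and recruit the effectors that move and tether vesicles, and SNAREs on the vesicle and on its target pair to fuse the membranes. The acinar cell, which makes up most of the pancreas, stores digestive enzymes in zymogen granules, and the beta cell stores insulin in granules of its own, so both depend on this route.

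Amylase and insulin, cargo of the acinar and the beta cell, changed far more than the genes of the route, whereas most other acinar genes did not. Amylase Amy2a3 was between 13.07 and 13.20 on the HU arrays, between 6.45 and 8.78 on the DU arrays and between 12.70 and 13.17 on the DT arrays, and Ins2 between 13.26 and 13.43, between 8.26 and 8.84 and between 9.56 and 11.11. In DU vs. HU the change was -5.18 for Amy2a3 (adjusted p = 1.04e-05) and -4.71 for Ins2 (adjusted p = 1.4e-06), and tungstate gave 5.01 and 1.45 in diabetic rats (adjusted p = 2.02e-05 and 0.0387). Of the 15 measured acinar markers 2 fell in DU vs. HU, Amy2a3 and Cuzd1 (-0.51), and the median of the 15 was -0.02. All 15 lay above the median of all probe sets, as did 4 of 6 beta cell markers. The summed level of the acinar list was 17.90 to 17.92 in HU, 17.79 to 17.82 in DU and 17.89 to 17.94 in DT, and that of the beta cell list 14.57 to 14.79 on the HU and HT arrays, 11.21 to 11.63 in DU and 11.77 to 13.08 in DT. In RNA of a whole organ, fewer cells of a type and less RNA per cell cannot be told apart. Among the 104 trafficking genes the largest absolute change in DU vs. HU, outside Gosr1, was 0.56 on the log2 scale. Among the 104 genes, HU3 had the highest value of the 12 arrays for 24, and HT3 had the lowest for 15 and the highest for 14. These counts were not made over all probe sets. The median absolute distance of the genes from their own group mean was 0.109 on DT3, 0.102 on HT3 and 0.097 on HU3. Over all probe sets it was 0.0905, 0.0855 and 0.0801 on these arrays. The median absolute distance of the genes from their HU mean was 0.18 on HT3 and between 0.06 and 0.15 on the other arrays.

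In DU vs. HU, which compares diabetic with healthy untreated rats, 3 of the 104 genes fell and 0 rose. Of all probe sets, 1.73% fell and 1.47% rose. No scan day held HU arrays together with DU or DT arrays. Scan day therefore cannot be told apart from diabetes where these groups are compared with HU. The genes that fell were Gosr1, a SNARE of the Golgi, Rab11fip5, a Rab11 effector of recycling endosomes, and Rab3gap2, a subunit of the complex that switches off Rab3. In DT vs. DU, the effect of tungstate in diabetes, Bet1, a SNARE of transport between the endoplasmic reticulum and the Golgi, rose, and 0 genes fell, beside 0.655% and 0.46% of all probe sets. Bet1 was also the only gene of the set that passed in DT vs. HU, where 0.756% of all probe sets were higher and 0.561% lower. In HT vs. HU none of the 104 genes passed by limma, and over all probe sets 0.0063% did. The interaction, which asks whether tungstate acted differently in diabetic and healthy rats, passed for none of the genes, beside 0.422% of all probe sets.

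At an unadjusted p under 0.05, 18 genes differed in DU vs. HU (17.3%, beside 20.2% of all probe sets), 10 in DT vs. DU (9.62% beside 9.89%), 20 in DT vs. HU (19.2% beside 16.6%), 12 in HT vs. HU (11.5% beside 5.41%) and 11 in the interaction (10.6% beside 8.75%). The 3 arrays of the groups did not overlap for 26 genes in DU vs. HU (25% beside 29.4%), 15 in DT vs. DU (14.4% beside 13.9%), for 20 in DT vs. HU (19.2% beside 21.1%) and for 15 in HT vs. HU (14.4% beside 11.6%). With the exception of HT vs. HU, these shares lay close to those of all probe sets. The HT vs. HU count was lower in fits with fewer arrays, which are also less precise. Without HT3 it was 2 genes (1.92%), and the share over all probe sets also fell, to 2%. Without HU3 it was 3 genes, a count that was not made over all probe sets. By the criterion of the study's methods, a B-statistic above 0, only Rab11fip5 passed in DU vs. HU (1.82% of all probe sets). Only Bet1 passed in DT vs. DU (1.05%) and in DT vs. HU (1.18%).

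The median log2 fold change of the 104 genes was 0.0049 for DU vs. HU, 0.0189 for DT vs. DU, -0.0037 in DT vs. HU and -0.0169 in HT vs. HU, and over all probe sets it was -0.022, 0.0045, -0.0173 and -0.0018. For the interaction it was 0.0582, beside 0.0043 over all probe sets. For 94 of the 104 genes the 95% interval of the change in DU vs. HU lay within 1.5-fold in both directions. The number was 94 for DT vs. DU, 91 for DT vs. HU and 98 for HT vs. HU. Over all probe sets the shares were 88.6%, 93.2%, 90.2% and 95.2%. For the interaction, which is the least precise, it was 69 genes (66.3%), beside 76.8% of all probe sets.

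**Figure D1:**
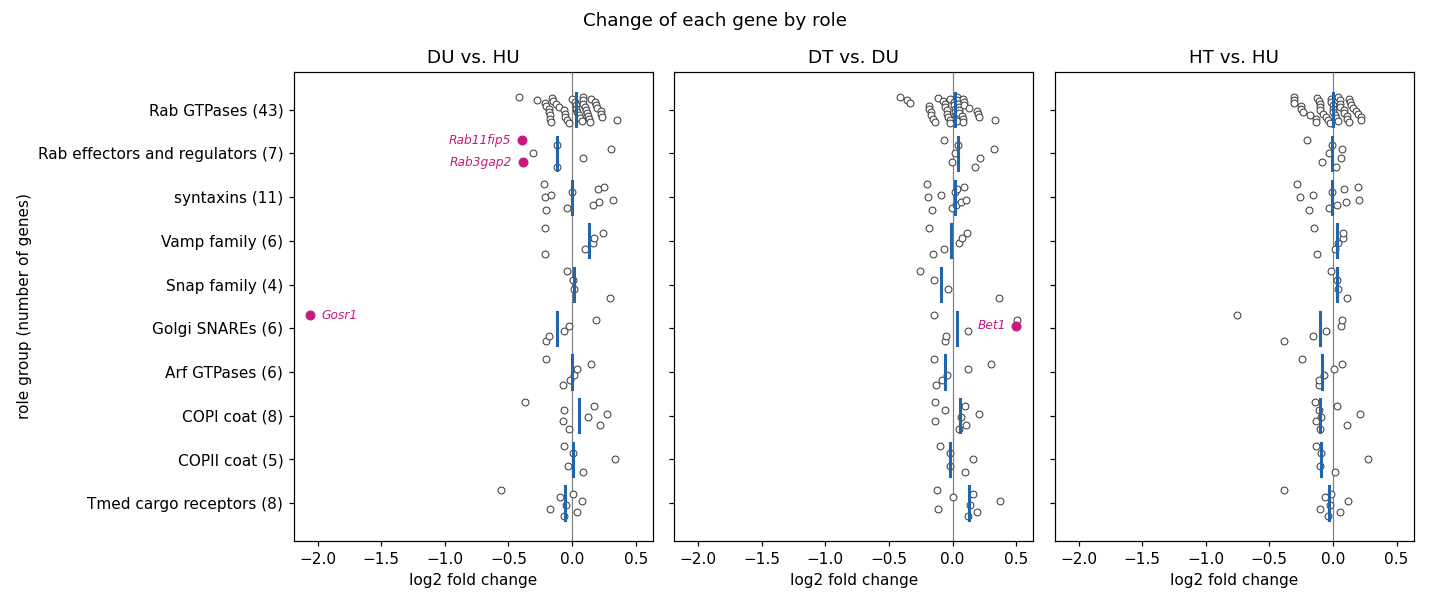
Each circle is 1 of the 104 genes, placed by its log2 fold change (x axis) in DU vs. HU, DT vs. DU and HT vs. HU and by its role group (y axis). Filled circles passed an adjusted p under 0.05 by limma, and the blue bar is the median of the group: apart from Gosr1 at -2.06 in DU vs. HU and -0.75 in HT vs. HU, every gene in these 3 comparisons lay within 0.6 of 0.

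Bet1 pairs with Gosr2, Stx5 and Sec22b to fuse vesicles from the endoplasmic reticulum at the entry side of the Golgi, and it was the only gene of the set that rose. Its level was 7.63, 7.57 and 7.71 on the HU arrays, 7.52, 7.57 and 7.35 on the HT arrays, 7.44, 7.77 and 7.51 on the DU arrays and 8.04, 8.12 and 8.06 on the DT arrays. All 3 DT arrays stood above the other 9. The change was 0.50 in DT vs. DU (SE 0.10, adjusted p = 0.0193 by limma), which is 1.42-fold, and 0.44 in DT vs. HU (SE 0.10, adjusted p = 0.0428). In DU vs. HU it was -0.06 and in HT vs. HU -0.16, neither of which passed, and the interaction of 0.66 (SE 0.13) had an adjusted p of 0.0603.

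The second probe set of Bet1 read 5.55, 5.63 and 5.84 in HU, 5.53, 5.68 and 5.69 in HT, 5.75, 5.96 and 5.79 in DU and 6.17, 6.34 and 6.25 in DT. Here too the DT arrays lay above all others, with 0.42 in DT vs. DU (adjusted p = 0.0571) and 0.58 in DT vs. HU (adjusted p = 0.0112). Within chip lot 1 the brighter probe set gave 0.48 for DT1 and DT2 over DU1 and DU2, within lot 3 it gave 0.55 for DT3 over DU3, and on scan day 1 it gave 0.64 for DT1 and DT2 over DU1. The call in DT vs. DU was lost without DU1, DU3, DT1 or DT2, with adjusted p-values up to 0.114, while the change stayed between 0.43 and 0.60 without any single array. It was also lost without chip lot 3 (0.48, adjusted p = 0.0761) and with only the arrays compared (adjusted p = 0.108). That in DT vs. HU was, among the fits without 1 array, kept only without HT3 or DU2, and was otherwise lost, with adjusted p-values up to 0.138.

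The partners of Bet1 in the same fusion complex did not pass in any of these comparisons. The brighter probe set of Gosr2 gave 0.19 in DU vs. HU (adjusted p = 0.284). Its second probe set lay on the other side of 0. That probe set read 7.56, 7.41 and 7.71 in HU, 7.22, 7.40 and 7.32 in HT, 7.01, 6.74 and 7.40 in DU and 7.71, 7.46 and 7.51 in DT. Its DU arrays lay below both the HU and the DT arrays, at -0.51 in DU vs. HU (SE 0.14, adjusted p = 0.0679) and 0.51 in DT vs. DU (adjusted p = 0.145), and the interaction was 0.76 (adjusted p = 0.197). Stx5 changed by at most 0.04 in the 5 contrasts, and Sec22b was 0.21 lower in DU vs. HU and 0.38 lower in HT vs. HU (adjusted p = 0.509 and 0.871). Bet1l, the related Golgi SNARE, was 8.11, 8.22 and 8.02 in HU and 8.07, 8.31 and 7.79 in DT, and its groups overlapped.

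The start regions of Bet1, Arf4, Tmed9 and Gosr1, the gene with the largest change, are shown from RefSeq. They are from assembly GRCr8 and run from 250 bases before to 50 after the annotated start, in the direction of the gene. The letters searched on both strands were CCAAT, the CCAAT box, CCACGT, the core of elements used by the unfolded protein response, TGACGT, the core of the cyclic AMP response element, and CACGTG, an E-box. Arf4 and Tmed9 were picked because their start regions hold CCACGT. Of the Arf and Tmed genes they had the highest log2 change in DT vs. DU. Matches on either strand are in capitals. TGACGT and CCACGT read on the opposite strand overlap where TGACGTGG occurs, and CCACGT overlaps CACGTG where CCACGTG occurs.
Bet1, chr4:33081113-33081412, minus strand: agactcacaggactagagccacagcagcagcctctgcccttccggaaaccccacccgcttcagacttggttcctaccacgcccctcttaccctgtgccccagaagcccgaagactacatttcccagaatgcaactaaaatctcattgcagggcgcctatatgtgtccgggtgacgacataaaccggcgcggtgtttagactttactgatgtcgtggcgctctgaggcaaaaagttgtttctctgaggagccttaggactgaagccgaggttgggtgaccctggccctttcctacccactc
Arf4, chr16:1903186-1903485, plus strand: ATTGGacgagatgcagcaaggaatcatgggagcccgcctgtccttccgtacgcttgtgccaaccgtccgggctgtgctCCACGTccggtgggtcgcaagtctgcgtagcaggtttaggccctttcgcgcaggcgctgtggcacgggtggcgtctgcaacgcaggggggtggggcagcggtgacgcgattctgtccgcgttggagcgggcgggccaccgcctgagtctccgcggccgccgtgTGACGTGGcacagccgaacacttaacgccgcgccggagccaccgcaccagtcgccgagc
Tmed9, chr17:9039262-9039561, minus strand: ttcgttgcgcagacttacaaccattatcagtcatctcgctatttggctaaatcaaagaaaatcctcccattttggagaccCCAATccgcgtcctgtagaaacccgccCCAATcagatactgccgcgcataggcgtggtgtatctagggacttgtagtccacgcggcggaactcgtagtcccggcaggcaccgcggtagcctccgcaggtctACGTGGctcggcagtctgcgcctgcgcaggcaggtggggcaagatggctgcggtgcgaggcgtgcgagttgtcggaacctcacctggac
Gosr1, chr10:62105266-62105565, minus strand: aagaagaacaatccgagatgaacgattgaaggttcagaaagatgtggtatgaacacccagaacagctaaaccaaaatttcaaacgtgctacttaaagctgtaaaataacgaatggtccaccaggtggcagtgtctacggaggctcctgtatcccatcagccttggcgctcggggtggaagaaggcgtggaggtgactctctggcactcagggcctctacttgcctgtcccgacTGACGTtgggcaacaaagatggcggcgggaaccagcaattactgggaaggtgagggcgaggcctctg

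None of the 4 motifs was found in the Bet1 window. Arf4 held 2 matches of CCACGT, 1 of CCAAT and 1 of TGACGT, which overlaps 1 of the CCACGT matches. Tmed9 held 1 match of CCACGT and 2 of CCAAT, and Gosr1 held 1 of TGACGT. The CCACGT matches of Arf4 and Tmed9 follow from how these genes were picked. A start region was matched for 89 of the 104 genes. CCACGT was in 25 of them (28.1%), beside 7.84% of all 33469 start regions and 10.9% of those of genes on the array. By role it was in 6 of 8 COPI genes (Copa, Copb1, Copb2, Copg1, Copz1 and Copz2), 5 of 8 Tmed genes (Tmed2, Tmed3, Tmed7, Tmed9 and Tmed10), 4 of 6 Arf genes and 2 of 3 COPII genes, and in 5 of 35 Rab GTPases and 1 of 11 syntaxins. TGACGT was in 20 (22.5%, beside 7.94% of all and 10.6% of array genes), CCAAT in 35 (39.3%, beside 37.5% and 37.6%) and CACGTG in 8 (8.99%, beside 6.42% and 8.92%). These matches describe the letters in the windows and were not tested.

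Gosr1 is a SNARE of transport within the Golgi. Its brighter probe set read 8.01, 7.52 and 7.70 on the HU arrays, 5.71, 5.81 and 5.53 on the DU arrays and 6.00, 6.79 and 5.79 on the DT arrays. On the HT arrays it read 7.35, 8.10 and 5.52. All diabetic arrays thus lay below the HU arrays, and HT3, from healthy rats, lay at the level of the lowest of them, DU3. The fall in DU vs. HU was -2.06 (SE 0.46, adjusted p = 0.0312), or 4.16-fold, and DT vs. HU gave -1.55 (adjusted p = 0.123).

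The second probe set of Gosr1 did not pass. It lay between 5.06 and 5.09 in HU, between 4.91 and 5.01 in HT, between 5.09 and 5.26 in DU and between 5.00 and 5.12 in DT, and gave 0.11 in DU vs. HU (SE 0.07, adjusted p = 0.43). The fall was seen with 1 of the 2 probe sets. The second is dim, with a mean of 5.07 beside a median of 6.67 for all probe sets, and may not show a fall. HT3, DU3 and DT3 came from chip lot 3 and HT3 and DT3 were scanned on the same day. Within lot 1, the difference of DU1 and DU2 from HU3 was -1.94, and without lot 3 the fall was -1.98 (adjusted p = 0.00191). A block for chip lot gave -1.30 (adjusted p = 0.143). A block for scan day gave -0.39 (adjusted p = 0.92), where no scan day held both HU and DU arrays. The trend and robust options of limma gave an adjusted p of 0.0926. The call was also lost without HU1, HU2, HU3, DU1, DU2 or DU3, with adjusted p-values up to 0.108 at changes between -1.92 and -2.17, while it was 0.000572 without HT3. Without HT3, Gosr1 also passed in DT vs. HU (-1.55, adjusted p = 0.0109).

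Rab11fip5 links Rab11 to recycling endosomes and to transport toward the apical membrane. It read 8.49, 8.55 and 8.40 in HU, 8.40, 8.40 and 8.37 in HT, 8.10, 7.99 and 8.15 in DU and 8.36, 8.34 and 8.53 in DT. All 3 DU arrays lay below the other 9. The fall in DU vs. HU was -0.40 (SE 0.08, adjusted p = 0.016), 1.32-fold. In DT vs. DU the level was 0.33 higher (SE 0.08, adjusted p = 0.0796), which did not pass. A block for chip lot moved both calls, since DT vs. DU then passed (adjusted p = 0.045) and the fall in DU vs. HU did not (-0.34, adjusted p = 0.0783). A block for scan day gave -0.08 in DU vs. HU (adjusted p = 0.953). No scan day held both HU and DU arrays, so that fit compares them only through other groups and cannot check the fall. The fall also lost its call without HU1, HU2, DU1 or DU2 (adjusted p up to 0.0819) and was -0.35 within chip lot 1. Its partner Rab11a, the GTPase of recycling endosomes, differed from HU by 0.06 in DU and by 0.13 in DT, and with its second probe set by -0.17 and -0.11.

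Rab3gap2 is the noncatalytic subunit of the complex that stimulates GTP hydrolysis by Rab3, a GTPase of regulated secretory granules, and it also acts on Rab18. It read 6.57, 6.57 and 6.79 in HU, 6.59, 6.55 and 6.77 in HT, 6.17, 6.23 and 6.37 in DU and 6.52, 6.37 and 6.52 in DT. The DU arrays lay below all HU and HT arrays, and DU3 and DT2 both read 6.37. The fall was -0.39 (SE 0.09, adjusted p = 0.0405) and within chip lot 1 it was -0.59. It is a probe set below the median of all probe sets, and was removed when dim probe sets were left out. The call was lost after quantile normalization (adjusted p = 0.0529) and after median centring (0.0574), and without any of HU1, HU2, HU3, HT1, HT2, DU1 or DU2, with adjusted p-values up to 0.154. Its GTPases did not pass: Rab3a was -0.21, Rab3b 0.00, Rab3c 0.09 and Rab18 0.23 in DU vs. HU.

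**Figure D2:**
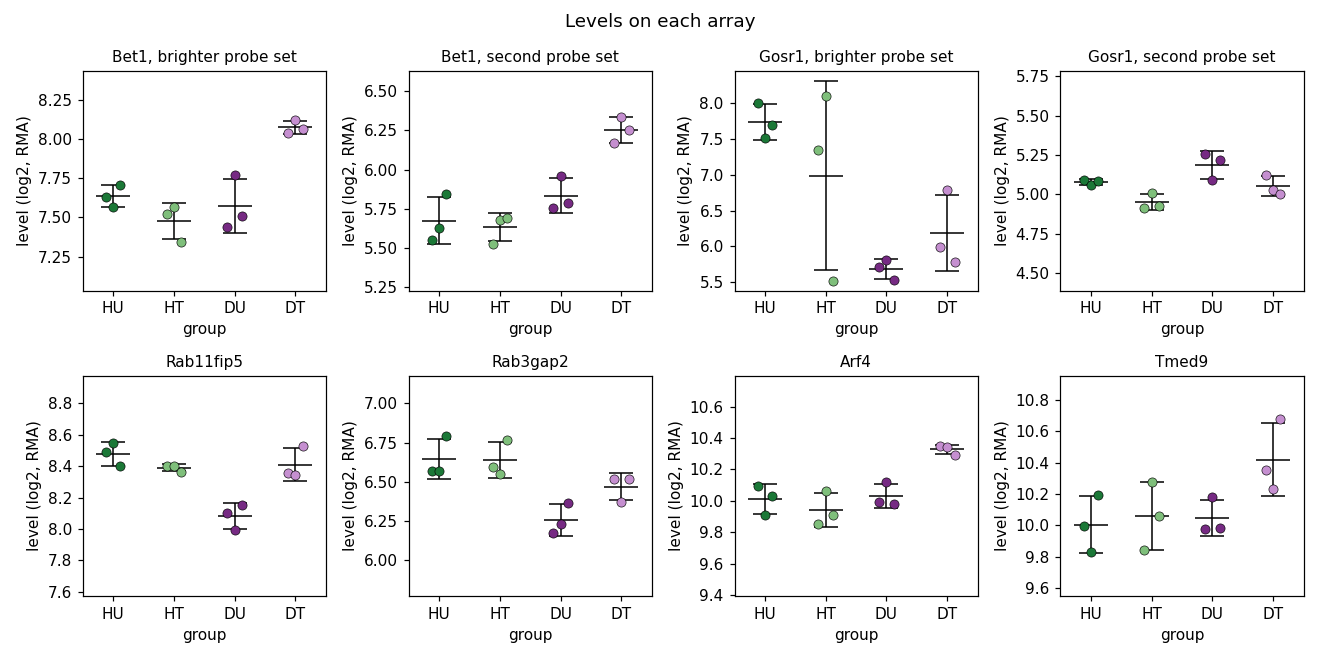
Levels on each array (y axis, log2 RMA values) by group (x axis) for Bet1 and Gosr1 with both probe sets, Rab11fip5, Rab3gap2, Arf4 and Tmed9, with the mean and SD of the 3 arrays. The DT arrays of Bet1 lie above all others with both probe sets, whereas the fall of Gosr1 is seen with the brighter probe set alone, where HT3 reads 5.52.

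Among the Rab GTPases, none of 43 passed in any comparison, and their medians were 0.03 for DU vs. HU, 0.02 for DT vs. DU and 0.00 in HT vs. HU. Rab1a, the GTPase of transport from the endoplasmic reticulum to the Golgi, read 10.35, 10.27 and 10.60 in HU, between 10.40 and 10.59 in DU and 10.39, 10.46 and 10.21 in DT. Its change in DU vs. HU was 0.10 (adjusted p = 0.677). Probes of such close paralogs may share transcripts, and the 2 probe sets annotated to both Rab1a and Rab1b were not used. Rab1b, which acts at the same step, was 0.14 and Rab2a, of the same compartment, was -0.19. Along the later route, Rab6a of the Golgi was -0.17, Rab8a of exocytosis 0.18, Rab5a of early endosomes 0.03 and Rab7a of late endosomes -0.06, none of which passed. The second probe set of Rab5a gave -0.34 and that of Rab7a -0.17, neither of which passed.

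Of the Rab GTPases of secretory granules, Rab27a had the highest change in DU vs. HU. It read 4.68, 4.79 and 4.66 in HU, 4.75, 4.71 and 5.07 in HT, 4.84, 5.20 and 5.16 in DU and 4.89, 5.14 and 5.04 in DT. The DU and DT arrays lay above all HU arrays, at 0.36 in DU vs. HU (SE 0.12, adjusted p = 0.116). Rab27b, a GTPase of zymogen granules in rodents, was -0.02, and Rab3a, of the insulin and synaptic granule, was -0.21 (adjusted p = 0.932 and 0.375). All 3 probe sets lie below the median of all probe sets.

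Rab38, known from lysosome-related organelles, had the largest fall of the Rab GTPases in DU vs. HU. It read 7.42, 7.40 and 7.08 in HU, 6.75, 7.03 and 6.87 in DU and 7.14, 7.36 and 7.17 in DT, that is -0.42 in DU vs. HU (SE 0.15, adjusted p = 0.133) and 0.34 in DT vs. DU (adjusted p = 0.457). The DU arrays lay below both other groups, and HT3 (6.88) lay among them.

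The largest falls in DT vs. DU were those of Rab31, of traffic between the trans-Golgi and endosomes, Rab12, of transport from recycling endosomes to lysosomes, and Rab10, of exocytosis. Rab31 read 7.53, 7.37 and 7.23 in DU and 6.95, 6.75 and 7.19 in DT, at -0.41 (SE 0.11, adjusted p = 0.121). Rab12 read 7.35, 7.45 and 7.60 in DU and 7.09, 6.80 and 7.46 in DT, at -0.36 (adjusted p = 0.419). In both genes DT1 and DT2 were low and DT3 was near the DU arrays. The second probe sets of both genes gave -0.07 in DT vs. DU, with overlapping groups. Without DT3, Rab31 passed in DT vs. DU (-0.52, adjusted p = 0.027) and Rab12 in DT vs. HU (-0.67, adjusted p = 0.0203).

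The summed markers of most cell types were higher on DT3 than on DT1 and DT2, also those of beta cells and other islet cells. The exceptions were the acinar list and the nerve and glia list. The summed level of 12 leukocyte markers was 11.14 and 11.47 on DT1 and DT2, 12.40 on DT3 and 11.82 to 12.43 on the DU arrays, and that of 10 stellate cell and fibroblast markers was 10.84, 10.96, 11.58 and 11.41 to 11.73. The part of any cell type in the levels of Rab31 and Rab12 was not tested. Rab10 was -0.34 in DT vs. DU with its brighter probe set (adjusted p = 0.434). Its second probe set read 7.18, 7.23 and 7.36 in HU, 7.24, 7.30 and 7.02 in DU and 6.76, 6.67 and 6.95 in DT, and was -0.39 in DT vs. DU (adjusted p = 0.088) and -0.46 in DT vs. HU (SE 0.10, adjusted p = 0.0376).

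The other Rab effectors and regulators did not pass. Rab5if, a factor named for its interaction with Rab5, read 9.77, 9.75 and 9.95 in HU, 10.04, 10.26 and 10.10 in DU and 10.16, 9.92 and 10.12 in DT. Its DU arrays lay above the HU arrays, at 0.31 (SE 0.09, adjusted p = 0.0859). All 3 Rab11 effectors were below 0 in DU vs. HU. Rab11fip3 was -0.12 and Rab11fip4 -0.31 (adjusted p = 0.518 and 0.248 by limma), beside the fall of Rab11fip5. Differences between the 3 were not tested. The probe set of Rab11fip3 is dim, with a mean of 3.89.

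None of the SNAREs of exocytosis passed in any comparison. Vamp8, the SNARE of zymogen granules known from the mouse, read 9.49, 9.26 and 9.63 in HU, 9.42, 9.43 and 9.58 in HT, 9.64, 9.52 and 9.74 in DU and 9.63, 9.61 and 9.90 in DT. The groups overlapped, and DU vs. HU was 0.18 (SE 0.11, adjusted p = 0.398). Vamp2, of insulin and synaptic granules, was -0.21 in DU vs. HU, with its lowest values on HT3 (7.28) and DT3 (7.22) where the other arrays lay at 7.56 or above. The second probe set of Vamp2 read 6.57, 6.78 and 6.52 in HU, 6.65 on HT3 and 6.26, 6.41 and 6.24 in DT. Its DT arrays lay below the HU arrays, and it did not pass in any comparison. Vamp3, a relative of Vamp2 of the recycling route, was 0.10 in DU vs. HU.

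The plasma membrane partners of these SNAREs gave values of the same size. In DU vs. HU, Stx3, of the zymogen granule, was 0.25 (adjusted p = 0.248) and -0.08 with its second probe set, Stx4, of the plasma membrane, was -0.22 (0.238), and Stx1a, of neurons and endocrine cells, was -0.04 (0.828). The second probe set of Stx1a read 6.65, 6.73 and 6.59 in HU, 6.35, 6.49 and 6.37 in DU and 6.51, 6.66 and 6.70 in DT. Its DU arrays lay below both other groups, at -0.25 in DU vs. HU (SE 0.08, adjusted p = 0.107) and 0.22 in DT vs. DU (adjusted p = 0.345). Snap23, the general partner, read 6.57, 6.50 and 7.10 in HU, from 6.78 to 7.30 in DU and 6.70, 6.73 and 6.87 in DT, and its 0.30 in DU vs. HU had an adjusted p of 0.296 with overlapping groups, beside 0.03 with its second probe set. Snap25, the partner in neurons and endocrine cells, was 0.01, and Snap29 0.02. The interval of the Snap25 change ran from -0.16 to 0.19. Its mean of 5.88 lies below the median of all probe sets (6.67), and a dim probe set may not show a fall. The level of Ins2, the beta cell cargo, was 26.1-fold lower in the same comparison.

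The endosomal syntaxins also stayed short of the threshold. Stx12 of recycling endosomes had the highest change, with 6.88, 6.78 and 6.91 in HU, 7.26, 7.29 and 6.99 in DU and 7.16, 6.84 and 7.04 in DT, at 0.33 in DU vs. HU (SE 0.10, adjusted p = 0.107). The DU arrays lay above all HU and HT arrays, and without chip lot 3 Stx12 passed. Stx6 of the trans-Golgi was -0.17, and 0.22 with its second probe set, and Stx7 of late endosomes 0.16. Snap91, a clathrin adaptor of nerve terminals that shares only its symbol with the Snap SNAREs, was 0.37 in DT vs. DU (adjusted p = 0.297) and -0.02 with its second probe set.

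Arf GTPases recruit coats to Golgi membranes and to the cell surface. Arf4 read 10.09, 9.91 and 10.03 in HU, 9.85, 10.06 and 9.91 in HT, 9.99, 10.12 and 9.98 in DU and 10.35, 10.34 and 10.29 in DT. The DT arrays lay above the other 9, as with Bet1. The difference was 0.30 in DT vs. DU (SE 0.08, adjusted p = 0.145) and 0.32 in DT vs. HU (SE 0.08, adjusted p = 0.0795), so that Arf4 passed in neither. Arf1, which recruits COPI, was -0.02 for DU vs. HU and -0.13 for DT vs. DU, and Arf6, of the plasma membrane, -0.08 and -0.15.

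None of the 8 COPI genes passed in the fit without a block. In DU vs. HU their changes ran from -0.37 for Cope to 0.27 for Copz1, with a median of 0.05, and in DT vs. DU from -0.14 to 0.20, with a median of 0.06. Copz1, a small subunit that joins the coat's inner layer, read 10.12, 10.05 and 10.14 in HU, 10.16, 10.29 and 10.49 in HT, 10.24, 10.43 and 10.46 in DU and 10.24, 10.21 and 10.27 in DT. Its HU arrays lay below all others, at 0.27 in DU vs. HU (adjusted p = 0.126) and 0.21 in HT vs. HU (adjusted p = 0.871). Cope was 8.94, 8.94 and 9.42 in HU and 8.63, 8.82 and 8.73 in DU (adjusted p = 0.174). With the chip lot as a block it passed as lower in DU vs. HU (-0.65, adjusted p = 0.0257). The larger subunits Copa, Copb1 and Copb2 were -0.07, -0.03 and 0.22.

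In the COPII coat, which buds vesicles from the endoplasmic reticulum, Sec23b of the inner layer read 9.30, 9.36 and 9.48 in HU, 8.98, 9.64 and 9.23 in HT, 9.53, 9.72 and 9.92 in DU and 10.06, 9.94 and 9.47 in DT. The DU arrays lay above the HU arrays, at 0.34 (SE 0.17, adjusted p = 0.281), and DT vs. HU was 0.44 (adjusted p = 0.223). Sec24c and Sec24d, the cargo-binding subunits, were -0.07 and 0.01 in DU vs. HU. Sec31a of the outer layer was 7.54 on HT3 and 7.62 on DT3 and between 6.69 and 7.16 on the other arrays. HT3 and DT3 share a chip lot and a scan day. DU3, of the same lot but scanned on another day, read 7.16. The parts of chip lot and scan day were not tested. The second probe set of Sec31a did not show these values: it read 7.17 on HT3 and 6.59 on DT3, the lowest of the 12 arrays, and 7.71 on DU3, the highest.

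Tmed proteins select cargo for COPII and COPI vesicles, and 6 of the 8 measured were above 0 in DT vs. DU, with a median of 0.13 and none passing. Over all probe sets 8193 of 15866 were above 0. Tmed9 read between 9.83 and 10.19 in HU, 9.85, 10.27 and 10.06 in HT, 9.98, 10.18 and 9.99 in DU and 10.35, 10.23 and 10.68 in DT. The DT arrays lay above the HU and DU arrays, at 0.37 in DT vs. DU (SE 0.14, adjusted p = 0.341) and 0.41 in DT vs. HU (adjusted p = 0.155). Tmed2, Tmed3 and Tmed10, of the same family, were 0.12, 0.14 and 0.16 in DT vs. DU.

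Tmed8, a less studied relative, read 6.42, 6.22 and 6.76 in HU, 6.38, 6.22 and 5.65 in HT, 5.82, 6.01 and 5.88 in DU and 5.97, 5.77 and 5.63 in DT. All diabetic arrays lay below the HU arrays and HT3 lay with them, as with the brighter probe set of Gosr1. The change was -0.56 in DU vs. HU (SE 0.17, adjusted p = 0.0975) and -0.68 in DT vs. HU (adjusted p = 0.0741). Without HT3 both passed, with adjusted p-values of 0.0342 and 0.0265.

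**Figure D3:**
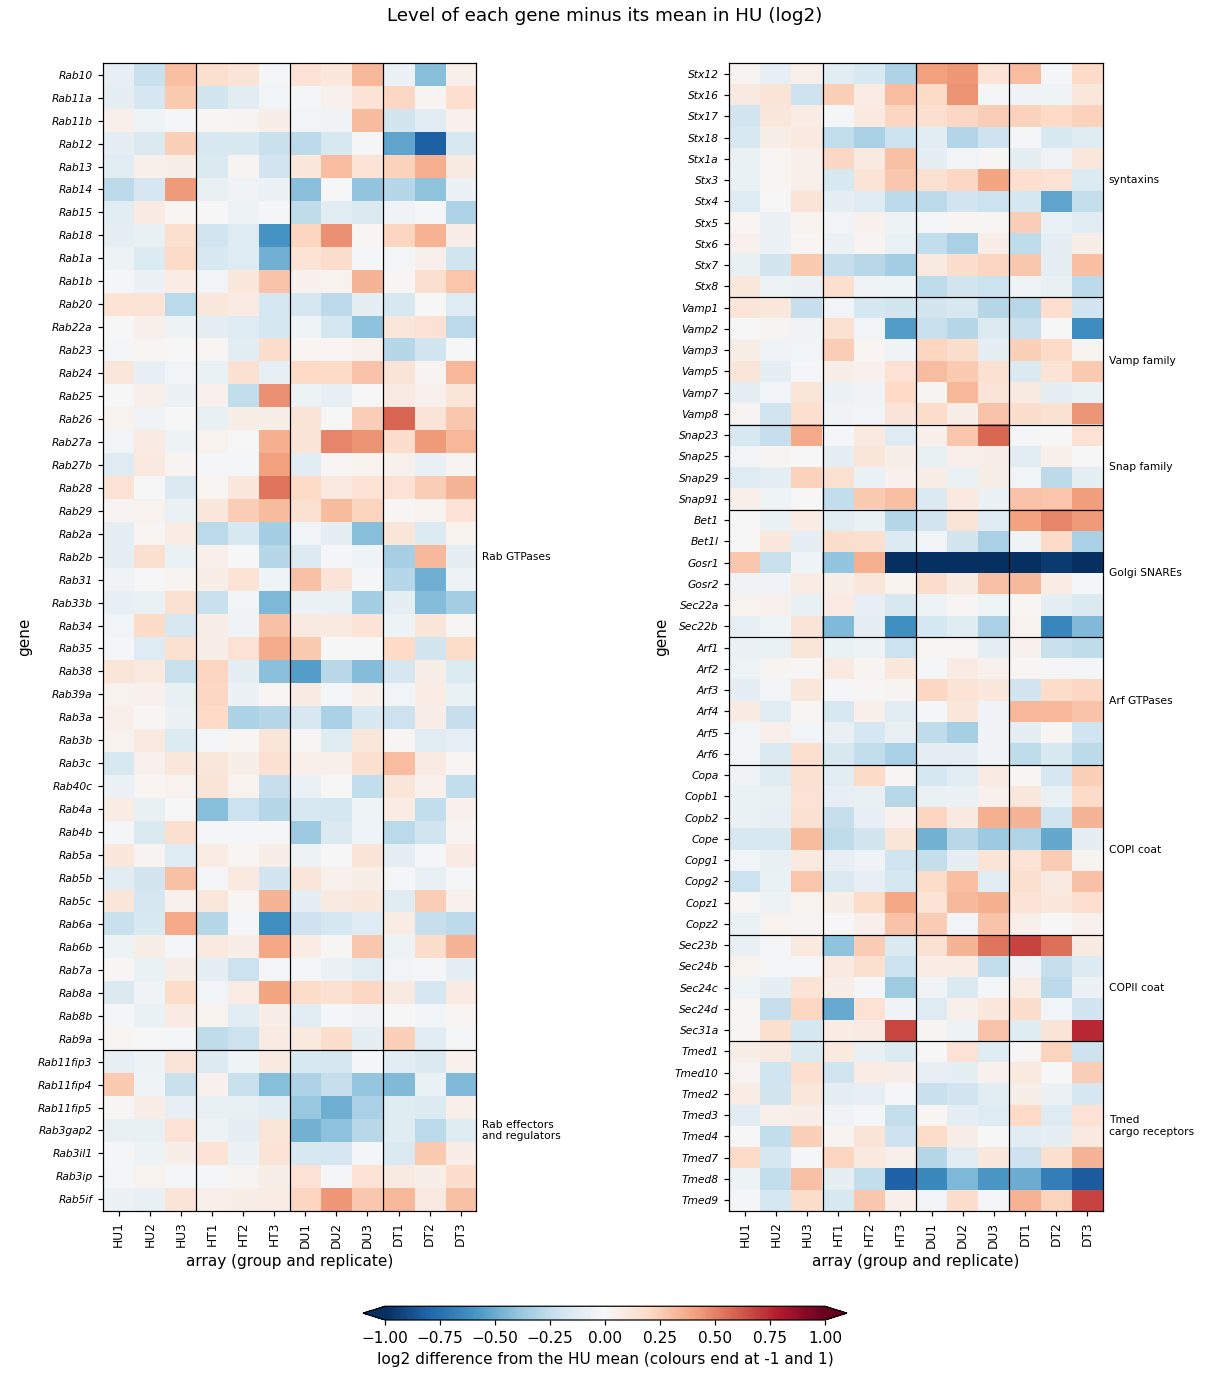
Level of each of the 104 genes (rows, grouped by role) on each of the 12 arrays (columns) minus the mean of its HU arrays, in log2 units, with colours that end at -1 and 1. Bet1 and Arf4 are deepest red on the DT arrays, Rab11fip5 and Rab3gap2 are darkest on the DU arrays, and HT3 carries the blue of the diabetic arrays in Gosr1 and Tmed8.

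In healthy rats tungstate gave no call. The largest rises were those of Sec31a (0.27), Rab29 of the trans-Golgi (0.22) and Rab28 (0.22), and the largest falls those of Gosr1 (-0.75), Sec22b (-0.38) and Tmed8 (-0.38), each with an adjusted p of 0.871 or above. Sec22b read 7.33, 7.36 and 7.53 in HU and 6.96, 7.31 and 6.80 in HT. Rab28 read 6.97, 6.83 and 6.68 in HU and 6.85, 6.93 and 7.36 in HT. In Gosr1, Tmed8, Sec31a, Rab28 and Sec22b the outermost HT value was that of HT3.

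Of the 12 genes at an unadjusted p under 0.05 in HT vs. HU, 9 were lower and 3 higher. Over all probe sets 439 were lower and 420 higher. In the less precise fit without HT3, 2 genes of the set were lower and 0 higher. The share over all probe sets was then also lower, at 2%. A shared direction of the genes was not tested. With all arrays, Rab4a, a GTPase of fast recycling from early endosomes, had the smallest p-value of the 12 genes. It read 6.95, 6.80 and 6.89 in HU and 6.45, 6.67 and 6.59 in HT, at -0.31. Its HT arrays lay below the HU arrays, and HT3 was not the lowest of them. Stx18, a SNARE of transport back to the endoplasmic reticulum, read 8.46, 8.68 and 8.72 in HU and 8.38, 8.30 and 8.41 in HT, at -0.26. Rab18, of lipid droplets and the endoplasmic reticulum, read 8.53, 8.54 and 8.77 in HU and 8.41, 8.49 and 8.02 in HT, at -0.31, and here HT3 was the lowest of the 12 arrays. The adjusted p was 0.871 for each of these 3 genes. Stx7, Rab2a, Arf6 and Rab1a were also lower in HT than in HU, at -0.28, -0.25, -0.24 and -0.25.

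Of 99 further genes of the same route, listed as partners of these proteins (fusion factors, exocyst and TRAPP subunits, Rab regulators, cargo receptors and clathrin adaptors), 89 were measured. Yipf5, a membrane protein of vesicles between the endoplasmic reticulum and the Golgi, rose in DU vs. HU (0.45, SE 0.10, adjusted p = 0.0319). Its rise over HU in the DT arrays was 0.51 (adjusted p = 0.0295). It read 8.76, 8.66 and 8.93 in HU, 8.74, 8.90 and 8.74 in HT, 9.14, 9.32 and 9.22 in DU and 9.45, 9.31 and 9.12 in DT, and all diabetic arrays lay above all healthy ones. None of the other partners passed in any contrast, and the median of the 89 was -0.03 for DU vs. HU and 0.01 for DT vs. DU.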

How the data were processed

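The authors scanned 12 Affymetrix RAE230-A arrays and made the deposited log2 values by RMA (background adjustment, normalization and summary per probe set) in the affy package (its version: not given in the sources used here). These log2 values were used without a further transformation. The array records deposited with them gave the 6 scan days and 3 chip lots, and were used as labels only. Of 15923 probe sets 57 controls were left out. The array medians lay between 6.63 and 6.70 and the correlations between arrays between 0.976 and 0.995. Precision depends on how many arrays there are, since arrays have no read depth. Gene symbols came from GEO's platform annotation (12783 probe sets with 1 symbol, 312 with several, 2771 with none), and all 104 genes matched RefSeq by gene ID.

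A mean for each group was fitted with limma 3.58.1 in R 4.3.3 to all 15866 probe sets and 12 arrays, with Benjamini-Hochberg adjustment within each contrast, tested on simulated arrays. Alternatives were a B-statistic above 0, median centring, quantile normalization, removal of dim probe sets (78 of the 104 genes were kept), only the arrays compared, trend and robust, blocks for scan day, chip lot and replicate, other choices of probe set, leaving out each array and, chosen after the values were seen, leaving out chip lot 3. Genes named are those with an adjusted p under 0.05, those with the 3 largest rises and falls in DU vs. HU, DT vs. DU and HT vs. HU, the one with the brightest probe set in each role group and 41 textbook genes, of which 39 were measured. Other genes are named for comparison with these and were chosen after their values were seen. Members, lists and motifs were chosen with earlier results of these data known. The 4 motifs were searched in RefSeq start regions of GRCr8.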

Additional observations from a re-analysis of the deposited data

Results flagged for a closer look

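Rab29, a GTPase of the trans-Golgi, was higher on every HT array than on every HU array, and lower on every DT array than on every DU array. It read 9.75, 9.75 and 9.65 in HU, 9.82, 9.96 and 10.03 in HT, 9.87, 10.03 and 9.94 in DU and 9.73, 9.75 and 9.86 in DT. The difference was 0.22 in HT vs. HU and -0.17 in DT vs. DU, and the difference between them was -0.39 on the log2 scale. Tested as the interaction, this difference did not pass (adjusted p = 0.286 by limma), and it was chosen from 104 genes for its pattern.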

How the results depend on the processing

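The counts of genes that passed were small and moved with most settings. With a B-statistic above 0 there was 1 in DU vs. HU (Rab11fip5) and 1 in the interaction (Bet1), and without dim probe sets 1 in the interaction (Bet1). With only the arrays compared, 0 passed in DT vs. DU, and in DT vs. HU Gosr1 (lower) passed in place of Bet1. With the scan day as a block, 0 passed in DU vs. HU, 0 in DT vs. HU and 2 in DT vs. DU (Bet1 higher, Rab31 lower). The median change of the 104 genes was then -0.0374 in DU vs. HU, -0.0547 in HT vs. HU and 0.1029 in the interaction. No scan day held HU arrays together with DU or DT arrays, so this block compares them with HU only through other groups. With the chip lot as a block, 2 passed in DT vs. DU (Bet1 and Rab11fip5, both higher) and 0 in DT vs. HU, and in DU vs. HU Gosr1 and Rab11fip5 lost their calls while Rab3gap2 and Cope passed as lower. With the second brightest probe set, 0 passed in DT vs. DU and 2 in DT vs. HU (Bet1 higher, Rab10 lower). Gosr1 then gave 0.11 in place of -2.06 in DU vs. HU (adjusted p = 0.43), from a dim probe set with a mean of 5.07. Without chip lot 3, 2 passed in DT vs. HU (Gosr1 and Rab12, both lower), and in DT vs. DU Bet1 lost its call (0.48, adjusted p = 0.0761) while Rab31 passed as lower. The count in DU vs. HU was 0 without HU1, HU2, DU1 or DU2, 1 without HU3 and 4 without HT3 or without chip lot 3. The causes were not tested.

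Leaving out each array in turn, the counts ran from 0 to 4 for DU vs. HU, from 0 to 2 for DT vs. DU, from 0 to 3 in DT vs. HU and from 0 to 1 in the interaction, and the count in HT vs. HU was 0 under every setting. The medians ran from -0.0298 to 0.0166 for DU vs. HU, from -0.007 to 0.0262 for DT vs. DU, from -0.0121 to 0.0342 in DT vs. HU, from -0.0409 to 0.0152 in HT vs. HU and from 0.0075 to 0.067 in the interaction. The replicate block left the calls as they were, with 3 for DU vs. HU, 1 for DT vs. DU and 1 for DT vs. HU. Whether replicate numbers pair the arrays was not tested. With the group means removed, correlations of same-numbered arrays ran from -0.29 to 0.31, and 6 of 12 arrays correlated best with their own number. The number of arrays, not read depth, limits these data.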
